A study of Mus musculus with 4 samples.

Results

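The Zfp9xx genes are mouse genes whose names are Zfp followed by a number that starts with 9 and has 3 digits. Their members here are every row of the count files whose symbol is Zfp9 with 2 further digits, which gave 58 genes of the 16613 listed. RNA-seq was done on GFP+ cells from the bone marrow of mice that had received B220+ marrow cells carrying an N-myc transduction. The groups were Anp32b-/- cells, which lack the nuclear acidic protein ANP32B, and Anp32b+/+ cells, with 2 libraries each and 4 in all. Both groups carried the N-myc transduction, and the labels give strain C57BL/6 and the cell type as N-myc-induced B-ALL cells (B-cell acute lymphoblastic leukaemia) for all 4. The labels give neither age, time after transfer nor the number of animals, so a p-value here covers the spread among the 4 libraries alone, and that spread could be technical. PU.1, an ETS transcription factor of blood cells, is named in the title of the study. The comparison asks which transcripts differ in leukaemia without Anp32b.

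C2H2 zinc finger proteins bind DNA through tandem fingers, each of which holds a zinc ion. Many of the vertebrate ones also carry a KRAB domain, which recruits the corepressor TRIM28 and through it SETDB1, an H3K9 methyltransferase, and HP1 proteins. Such proteins are known above all for silencing endogenous retroviruses and other transposons. Their genes multiply by tandem duplication, so neighbours can be near-identical copies. In mouse, clusters of these genes on chromosomes 2 and 4 have been linked to repression of retroelements. Which of the members carry a KRAB domain was not determined.

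The label fits the sequences. Of 57 members with a coding transcript in GENCODE, 54 held at least 1 C2H2 finger pattern in their longest reading frame, with a median of 11 fingers and a maximum of 21 in Zfp974. The 3 without one were Zfp957 and the short annotated frames of Zfp972 and Zfp993. By RefSeq coordinates (GRCm38.p6), 39 members lay in 6 clusters and 19 lay alone, a cluster being members on 1 chromosome whose neighbours start within 1 Mb. The chromosome 4 cluster held 12 members between 145510759 and 147849126. The chromosome 17 cluster held 10 between 21565816 and 22867309, and the chromosome 2 cluster held 9 between 175372034 and 178078425. The clusters on chromosomes 7 and 8 held 3 members each, and that on chromosome 13 held 2.

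Some members have identical or similar promoter windows, as the following sequences show. This does not tell how alike their transcripts are. The windows run from 250 bases before to 50 bases after the start of the gene, 5′ to 3′ on the strand of the gene, from RefSeq (GRCm38.p6). Zfp966 and Zfp967, both in the chromosome 2 cluster, had the same base at 300 of 300 positions. Zfp966 lies on the minus strand at chr2:175931051-175931350 and Zfp967 on the plus strand at chr2:176520754-176521053, so 1 line stands for both. Capitals mark CCAAT on either strand.
Zfp966 and Zfp967: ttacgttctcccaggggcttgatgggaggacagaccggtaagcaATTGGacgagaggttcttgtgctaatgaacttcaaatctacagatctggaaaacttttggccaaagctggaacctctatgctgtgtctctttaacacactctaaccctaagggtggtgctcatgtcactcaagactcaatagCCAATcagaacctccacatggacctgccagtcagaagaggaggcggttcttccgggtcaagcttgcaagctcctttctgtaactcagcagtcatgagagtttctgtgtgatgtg

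Zfp985 and Zfp987 are the chromosome 4 members that rose in Anp32b-/- cells, as described below. Their windows were 89% identical, at chr4:147553027-147553326 for Zfp985 and chr4:146097062-146097361 for Zfp987, both on the plus strand. Capitals mark GAGGAAGT, a core bound by ETS factors such as PU.1, searched on both strands.
Zfp985: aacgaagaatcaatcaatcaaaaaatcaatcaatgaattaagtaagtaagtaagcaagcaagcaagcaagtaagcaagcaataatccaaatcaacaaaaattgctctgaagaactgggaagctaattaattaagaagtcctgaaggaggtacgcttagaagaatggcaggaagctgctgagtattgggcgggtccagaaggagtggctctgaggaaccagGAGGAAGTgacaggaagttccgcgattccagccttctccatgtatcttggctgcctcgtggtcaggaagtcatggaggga
Zfp987: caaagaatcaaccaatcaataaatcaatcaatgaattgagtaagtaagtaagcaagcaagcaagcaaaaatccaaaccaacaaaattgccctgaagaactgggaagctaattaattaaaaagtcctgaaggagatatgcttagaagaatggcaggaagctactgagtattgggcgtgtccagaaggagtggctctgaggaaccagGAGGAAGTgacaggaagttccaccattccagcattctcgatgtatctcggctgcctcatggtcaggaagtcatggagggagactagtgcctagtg

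A promoter window was found for 52 of the 58 members. GAGGAAGT stood in 5 of them (9.62%), against 3.69% of 27025 genes with a window. All 5 were in the chromosome 4 cluster: Zfp985 and Zfp987, and also Zfp979, Zfp980 and Zfp982. Of these, Zfp982 was not called, and Zfp979 and Zfp980 were too low to test. The other members that rose, Zfp931, Zfp972 and Zfp994, had windows without GAGGAAGT. So had Zfp933, Zfp981, Zfp984 and Zfp993 of the chromosome 4 cluster. Zfp991 and Zfp992, the members of this cluster that fell, had no window and were not searched, and neither was Zfp990. CCAAT stood in 39 windows (75%), against 41.1% of all genes, and the E-box CACGTG, a sequence that MYC proteins can bind, in 7 (13.5%), against 8.09%. The GC box GGGCGG stood in 18 (34.6%), against 38.2%. Each motif was counted by itself on both strands, so a base can belong to more than 1 match. The members' windows descend from common copies, so they are not independent, and a match is a match of letters, not a bound site.

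Library totals were 19581575 and 19605800 estimated reads in Anp32b-/- and 19692505 and 19758671 in Anp32b+/+. Anp32b itself had 1449 and 1367 reads in the libraries labelled Anp32b-/-, against 15418 and 16920 in those labelled Anp32b+/+, which fits the labels. Markers of the B lineage were present in all libraries: 8 of 8 were above 0 reads, with a summed level of 4900 to 4920 CPM in Anp32b-/- and 5230 to 5280 CPM in Anp32b+/+. CPM, counts relative to library size, are scaled here by TMM factors. Of these B lineage markers, 1 rose in Anp32b-/-, Cd22 (log2 fold change 1). Another 3 fell, Ebf1 (-0.52), Vpreb1 (-0.37) and Igll1 (-0.37). That is 50% called, against 23.6% of all tested genes. Of 15 neutrophil markers, 14 fell in Anp32b-/-, with a summed level of 124 CPM in both Anp32b-/- libraries and 630 to 641 CPM in Anp32b+/+. All 4 Y-linked genes of the list, which only male cells carry, fell. Their summed level was 41.7 to 42.5 CPM in Anp32b-/- and 156 to 173 CPM in Anp32b+/+. No marker of these lists was at 0 in any library, and their part in the results below was not tested. In bulk RNA, fewer cells of a type and less RNA per cell cannot be told apart.

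The Zfp9xx genes were expressed at low levels. All 58 together took 9664.4 and 9506.7 reads in Anp32b-/-, against 10237.5 and 10609.4 reads in Anp32b+/+. Of the members, 50 passed the filter on low counts, with a median of 7.9 CPM over all libraries, while all 12123 tested genes had a median of 28.9 CPM. The other 8 were Zfp957, Zfp968, Zfp973, Zfp977, Zfp979, Zfp980, Zfp981 and Zfp990. They had between 1 and 18.3 reads over all 4 libraries. Where a library has 0 reads, up to 3 reads could have been missed by counting error alone. That is 0.152 to 0.153 CPM without TMM scaling.

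Per length of the longest protein-coding GENCODE transcript, the most abundant member was Zfp970 of the chromosome 2 cluster, at 18.0 ± 0.366 CPM per kb in Anp32b-/- and 17.9 ± 0.714 in Anp32b+/+ (SD, n = 2 each). Zfp984 of the chromosome 4 cluster was at 16.5 ± 0.295 CPM per kb in Anp32b-/- and 16.9 ± 0.08 in Anp32b+/+. Zfp961, alone on chromosome 8, was at 14.6 ± 1.31 CPM per kb in Anp32b-/- and 16.2 ± 0.432 in Anp32b+/+. None of these 3 passed the test between genotypes. Zfp932 on chromosome 5, whose product represses endogenous retroviruses in mouse cells, was at 10.9 ± 0.365 CPM per kb in Anp32b-/- and 10.5 ± 0.615 in Anp32b+/+. It was not called either (log2 fold change 0.05, 95% interval -0.12 to 0.22). Zfp972, next in this order, was at 12.3 ± 1.05 CPM per kb in Anp32b-/- and 7.17 ± 1.75 in Anp32b+/+, on an annotated transcript of only 561 bases. Across all tested members the level ran from 0.199 to 18.0 CPM per kb.

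Between genotypes, 5 members rose and 7 fell in Anp32b-/- cells, at an adjusted p under 0.05 in edgeR's quasi-likelihood test. That is 12 of 50 tested members or 24%, against 23.6% of all 12123 tested genes. By direction it is 10% against 10.9% higher and 14% against 12.6% lower, so these shares lie near the background. The median log2 fold change (Anp32b-/- over Anp32b+/+) was -0.06, against 0.00 for all tested genes. At a fold change of at least 2, 2 members rose, Zfp985 and Zfp987, and 1 fell, Zfp966, against 1.30% and 3.90% of all tested genes. Among members in clusters 10 of 32 were called, and among those outside clusters 2 of 18. That difference was not tested. The CPM of the genotypes did not overlap for 27 of the 50 members, against 60.5% of all tested genes. Of these, 9 were higher in Anp32b-/-, against 30.0% of all tested genes, and 18 were lower, against 30.5%.

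**Figure D1:**
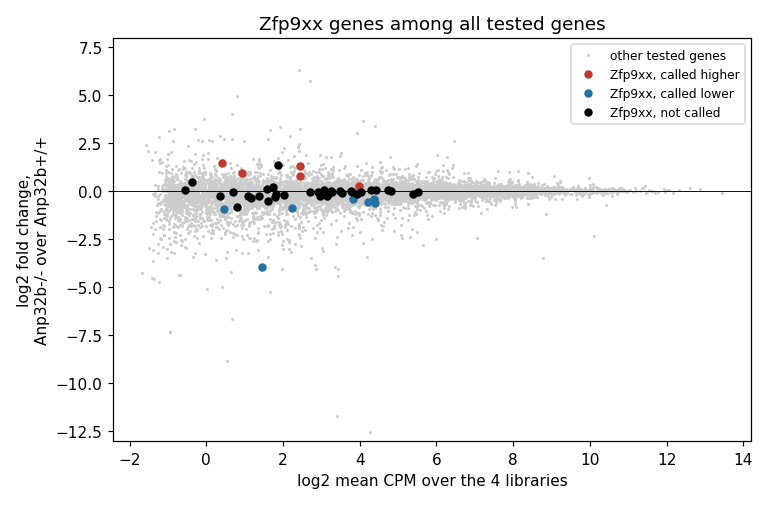
Log2 fold change (Anp32b-/- over Anp32b+/+) against log2 mean CPM for each tested gene, with the 50 tested Zfp9xx genes in colour or black. The called members lie on both sides of 0, 5 above and 7 below, and Zfp966 is the lowest member at -3.92.

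**Figure D2:**
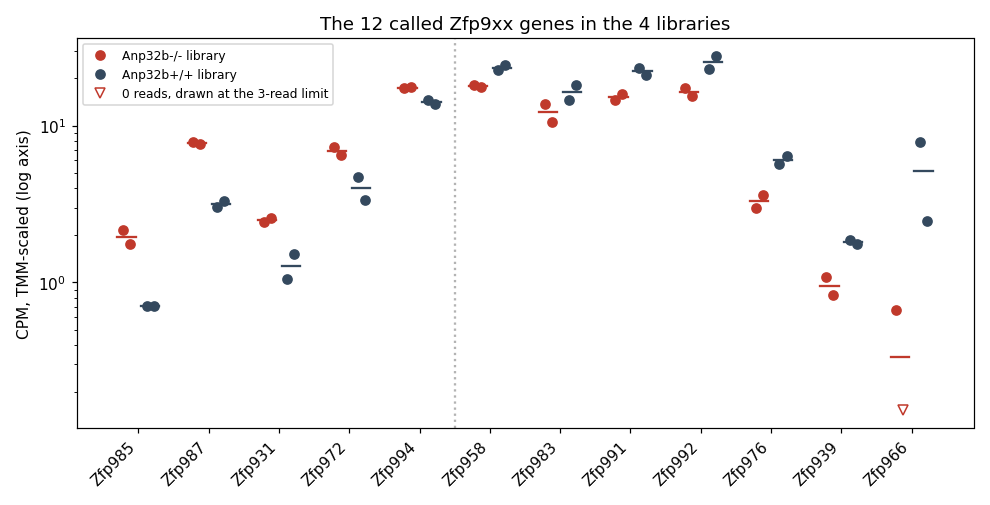
CPM of the 12 called members in each library on a log axis, Anp32b-/- left of Anp32b+/+ for each gene, with the mean as a line. The genotypes do not overlap for any of the 12, which is part of how they came to be called. Zfp966 has 0 reads in 1 Anp32b-/- library.

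The chromosome 4 cluster held the called members with the highest fold increases, and beside them 2 that fell. Zfp987 (146097312 to 146126624) had 152.72 and 148.15 reads in Anp32b-/-, against 60.44 and 65.33 in Anp32b+/+. Both Anp32b-/- libraries thus lay above both Anp32b+/+ libraries, with pairs that differ little. Its level was 7.75 ± 0.15 CPM in Anp32b-/- and 3.14 ± 0.188 CPM in Anp32b+/+ (SD, n = 2 each), a log2 fold change of 1.30 (SE 0.16, edgeR adjusted p = 2.8e-05). Zfp985 (147553277 to 147585201) had 42.4 and 33.76 reads in Anp32b-/-, against 14.14 and 14.02 in Anp32b+/+. It rose by 1.47 (SE 0.32, edgeR adjusted p = 0.00392), from few reads. This call was lost with DESeq2 (adjusted p = 0.051) and without Anp32b-/- replicate 1 (0.0621), while that of Zfp987 held in all 10 alternatives that gave it a value.

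Zfp992 (146449030 to 146469440) had 338.72 and 301.18 reads in Anp32b-/-, against 454.29 and 552.66 in Anp32b+/+. The genotypes did not overlap, and the Anp32b+/+ libraries lay 3.10 counting errors apart. Its log2 fold change was -0.62 (SE 0.10, edgeR adjusted p = 0.000563), a call lost without Anp32b-/- replicate 2 (adjusted p = 0.0692) and with no filter on low counts (0.0646). Zfp991 (147132093 to 147180579) had 284.4 and 307.37 reads in Anp32b-/-, against 467.4 and 416.6 in Anp32b+/+. It fell to 15.2 ± 0.901 CPM in Anp32b-/-, against 22.2 ± 1.71 CPM in Anp32b+/+ (log2 fold change -0.55, SE 0.09, adjusted p = 0.000606), and was called in all 11 alternatives. These fallers are related in sequence: 24.8% of the 100-base words of Zfp992's transcripts also stood in those of Zfp991.

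The other tested members of the chromosome 4 cluster were not called. Zfp984, the most abundant of the cluster, had 864.82 and 882.43 reads in Anp32b-/-, against 918.48 and 920.04 in Anp32b+/+. The 95% interval of its log2 fold change was -0.18 to 0.10, below those of Zfp985 (0.78 to 2.15) and Zfp987 (0.96 to 1.64). Zfp933 was at -0.01 (95% interval -0.36 to 0.34), Zfp982 at -0.23 (-0.76 to 0.31) and Zfp993 at 0.09 (-0.79 to 0.97). Zfp979, Zfp980, Zfp981 and Zfp990 were below the filter. Neighbouring members thus rose, fell or were not called within 2.34 Mb. The summed reads of all 12 were 1909.32 and 1868.06 in Anp32b-/-, against 2093.33 and 2218.13 in Anp32b+/+. Fitted as 1 row in place of its members, this sum was not called (log2 fold change -0.16, 95% interval -0.28 to -0.04, adjusted p = 0.0536). It was called lower with the replicate number as a block (-0.16, adjusted p = 0.0299), with upper-quartile normalization (-0.19, 0.0246), with a filter of 10 CPM (-0.18, 0.0293) and without Anp32b+/+ replicate 1 (-0.20, 0.00559).

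The chromosome 2 cluster held the largest fall of the family in a gene with near-identical copies. Zfp966 (175918283 to 175931100) had 12.73 and 0 reads in Anp32b-/-, against 156.16 and 49.47 in Anp32b+/+. Its log2 fold change was -3.92 (SE 0.68, edgeR adjusted p = 0.000697). The Anp32b+/+ libraries lay 7.44 counting errors apart. The value was -2.94 without Anp32b-/- replicate 2, -2.86 without Anp32b+/+ replicate 1 and -4.53 without Anp32b+/+ replicate 2. Without Anp32b-/- replicate 1, the remaining Anp32b-/- library has 0 reads. Zfp966 was 33.7-fold lower if 3 reads, in CPM without TMM scaling, are set for that 0. This is not a bound, since how reads were assigned between copies is not given, and this library had 119.29 reads of Zfp967. The call was lost with DESeq2 (adjusted p = 0.327), with no filter (0.117) and without Anp32b-/- replicate 2 (0.0818).

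Zfp967 (176521004 to 176533821) moved the other way between the same libraries. It had 85.28 and 119.29 reads in Anp32b-/-, against 0 and 81.11 in Anp32b+/+. So the Anp32b+/+ library with the most Zfp966 reads had 0 reads of Zfp967. Zfp967 was not called (log2 fold change 1.36, SE 0.61, adjusted p = 0.125), but was called with limma-voom (4.02, 0.0199), with the replicate number as a block (1.52, 0.000507) and without Anp32b+/+ replicate 2 (adjusted p = 2.39e-07). In that last fit the remaining Anp32b+/+ library has 0 reads. Zfp967 was 34.5-fold higher in Anp32b-/- if 3 reads, in CPM without TMM scaling, are set for that 0. This is not a bound, since how reads were assigned between copies is not given, and this library had 156.16 reads of Zfp966. Without Anp32b+/+ replicate 1 the log2 fold change of Zfp967 was 0.36. Of the 100-base words in Zfp967's annotated transcripts, 100% also stood in transcripts of Zfp966 and 100% in those of Zfp968. In the other direction the shares were lower. Of Zfp966's words, 55.7% stood in transcripts of Zfp967, 66.3% in those of Zfp968 and 79.9% in those of any other gene. Their shared promoter window is the first sequence printed above.

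Zfp966, Zfp967 and Zfp968 were also summed to 1 row, a step added once these values had been seen. The sum was 104.47 and 119.29 reads in Anp32b-/-, against 156.16 and 130.58 in Anp32b+/+. The genotypes still did not overlap, but the sum was not called. Its log2 fold change was -0.33 (edgeR adjusted p = 0.129), with an SE of 0.15 and a 95% interval of -0.65 to -0.01. That of Zfp966 alone ran from -5.37 to -2.47. With such copies summed, 5 of 48 members or sums rose and 6 fell, against 10.9% and 12.7% of all tested genes in that fit.

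**Figure D3:**
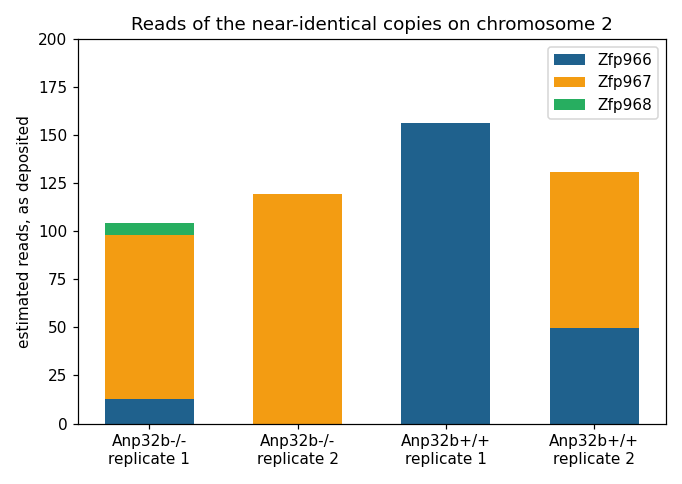
Estimated reads of Zfp966, Zfp967 and Zfp968 stacked for each library, as deposited. The highest bar part is Zfp967 in 3 libraries and Zfp966 in Anp32b+/+ replicate 1, and the sums lie between 104.47 and 156.16 reads.

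Zfp972 and Zfp931, at the far end of the same cluster, rose in Anp32b-/- cells. Zfp972 (177903064 to 177925650) had 143.43 and 125.91 reads in Anp32b-/-, against 93.53 and 66.14 in Anp32b+/+ (log2 fold change 0.78, SE 0.18, edgeR adjusted p = 0.00531). Zfp931 (178066446 to 178078425) had 46.56 and 50.38 reads in Anp32b-/-, against 20.92 and 30.39 in Anp32b+/+ (0.96, SE 0.27, adjusted p = 0.0196). The genotypes did not overlap for either gene. Both calls were lost with no filter, without Anp32b-/- replicate 1 and without Anp32b-/- replicate 2, with adjusted p up to 0.091 for Zfp972 and 0.173 for Zfp931. That of Zfp931 was also lost with DESeq2 (0.168) and without Anp32b+/+ replicate 1 (0.106).

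Among the rest of the chromosome 2 cluster, Zfp970 had 557.94 and 539.3 reads in Anp32b-/-, against 575.59 and 542.21 in Anp32b+/+ (log2 fold change 0.01, 95% interval -0.15 to 0.17). Zfp971 was at -0.14 (-0.42 to 0.13). Zfp965 had 46.3 and 16.19 reads in Anp32b-/-, against 48.74 and 15.75 in Anp32b+/+. Its libraries differ within each genotype and not between them. Zfp968 and Zfp973 had reads in 1 library each, 6.46 and 7.41. The sum over the 9 members was not called (0.05, SE 0.07, adjusted p = 0.695). Of 15 tested rows of the files that lie in the same interval without a Zfp9xx symbol, 2 rose, Gm14322 and Gm2026. That is 13.3% called, against 23.6% of all tested genes. No such row was called in the intervals on chromosomes 4 (of 2 tested), 8 (of 3) and 17 (of 6). Gm14322 had 132.15 and 134.15 reads in Anp32b-/-, against 51.91 and 61.31 in Anp32b+/+ (1.27, SE 0.17, adjusted p = 7.16e-05).

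In the chromosome 7 cluster (42579397 to 42692810) Zfp976 fell. It had 58.35 and 69.9 reads in Anp32b-/-, against 112.52 and 126.8 in Anp32b+/+ (log2 fold change -0.87, SE 0.17, edgeR adjusted p = 0.00219), and was called in all 10 alternatives that gave it a value. Its neighbour Zfp975 had 39.95 and 58.85 reads in Anp32b-/-, against 62.7 and 78.54 in Anp32b+/+, and was not called (-0.49, 95% interval -0.99 to 0.02). Zfp977 had 1 read in all. The sum of the 3 was the only cluster sum of 6 that was called, lower in Anp32b-/- (-0.71, SE 0.15, adjusted p = 0.00319), against 12.7% of all tested genes in that fit. That call was lost without Anp32b-/- replicate 1 (-0.52, adjusted p = 0.0623) and with no filter (-0.70, 0.0636).

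In the chromosome 17 cluster 1 of 10 tested members rose and 1 fell, near the 10.9% and 12.6% of all tested genes. Zfp994 (22197265 to 22225659) had 336.71 and 341.33 reads in Anp32b-/-, against 290.54 and 271.11 in Anp32b+/+ (log2 fold change 0.30, SE 0.09, edgeR adjusted p = 0.0274). Zfp983 (21650572 to 21664966) had 269.34 and 204.2 reads in Anp32b-/-, against 290.12 and 356.47 in Anp32b+/+ (-0.42, SE 0.13, adjusted p = 0.0343). The genotypes did not overlap for either gene. For Zfp983, however, the libraries of each genotype lay further apart than the nearest libraries of the 2 genotypes. Both calls were lost with DESeq2 (adjusted p = 0.236 and 0.143), with no filter, without Anp32b-/- replicate 2 and without Anp32b+/+ replicate 2, and that of Zfp994 also without Anp32b-/- replicate 1. The other 8, Zfp942 to Zfp948 by number and Zfp995, ran from -0.34 (Zfp947) to 0.23 (Zfp948) and were not called. The sum of the 10 members was at 0.01 (95% interval -0.13 to 0.14).

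Outside the clusters, Zfp958 and Zfp939 fell. Zfp958 on chromosome 8 (4613170 to 4632572) had 351.47 and 341.87 reads in Anp32b-/-, against 447.69 and 479.35 in Anp32b+/+ (log2 fold change -0.39, SE 0.08, edgeR adjusted p = 0.00388). None of its 100-base words stood in a transcript of another gene. Its call was lost with DESeq2 (adjusted p = 0.0513) and without Anp32b-/- replicate 2 (0.0963). Zfp939 on chromosome 7 (39449479 to 39477429) had 20.98 and 15.85 reads in Anp32b-/-, against 36.67 and 34.84 in Anp32b+/+ (-0.92, SE 0.30, adjusted p = 0.041). Leaving out any 1 of the 4 libraries ended this call, as did DESeq2 and no filter, with adjusted p up to 0.291. Of members not called, Zfp964 in the chromosome 8 cluster had the lowest value. It had 25.29 and 24.46 reads in Anp32b-/-, against 36.41 and 52.4 in Anp32b+/+ (-0.81, SE 0.29, adjusted p = 0.0562). A call came with upper-quartile normalization (-0.84, adjusted p = 0.049), with the replicate block (-0.80, 0.0386) and without Anp32b+/+ replicate 1 (-1.05, 0.0195). The sums of the clusters on chromosomes 8 (-0.09, 95% interval -0.31 to 0.12) and 13 (-0.15, -0.36 to 0.05) were not called. The other tested members outside clusters ran from -0.27 for Zfp949 to 0.51 for Zfp941.

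**Figure D4:**
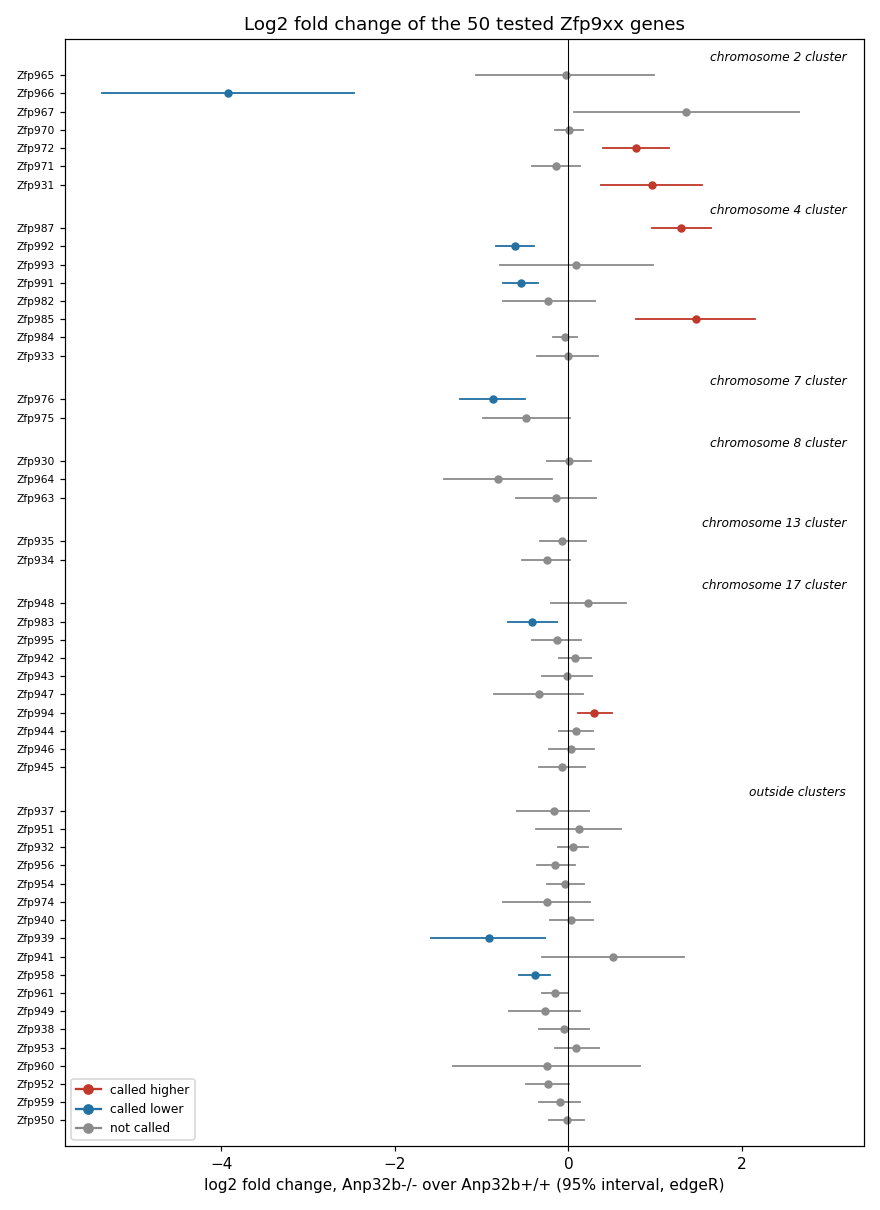
Log2 fold change of each of the 50 tested members with its 95% interval from edgeR, in genomic order within clusters. Zfp985 at 1.47 and Zfp987 at 1.30 stand above 0 in the chromosome 4 cluster, where Zfp991 and Zfp992 stand below it.

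Members differed widely in how much sequence they share with other genes. Taking every 100-base word of a member's transcripts, the share also found in transcripts of another GENCODE gene had a median of 3.51% over the 58 members, and 16 members shared none. In 10 members it was over 50%, and in the chromosome 2 cluster the median was 79.9%, against 0.903% in the chromosome 17 cluster. For 50-base words the median over the 58 members was 18.9%, and the counts that follow use 100-base words. Of the 8 tested members over 50%, 4 had a pair of replicates that differed by more than 3 counting errors: Zfp960, Zfp965, Zfp966 and Zfp967. Of the other 42, 1 did, Zfp992, but others lay just under this limit, which was set with the values known: Zfp983 at 2.99 in Anp32b-/- and Zfp930 at 2.96 in Anp32b+/+. No difference between these sets was tested. Over all tested genes, 3.49% of Anp32b-/- pairs and 11.7% of Anp32b+/+ pairs differed by that much, and over the tested members 4% and 10%. This is a description over genes that share libraries and, within a cluster, sequence.

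The called members differed in this respect. Zfp985 shared 1.73% of its 100-base words with other genes, Zfp983 1.57%, Zfp939 1.21% and Zfp994 5.39%. In 50-base words these shares were larger, at 15.9%, 9.83%, 11.7% and 18.2%. Zfp972 shared 32% of its 100-base words and 56.5% of its 50-base words, and Zfp966 79.9% and 90%. Zfp987 shared 71.7%, mostly with Gm8935, and Zfp991 shared 70.3%, mostly with Znf41-ps, both not analysed here. Their values are therefore uncertain, although their replicates lay within 2 counting errors of each other. Deposited values were whole numbers in all 4 libraries for 2 of the 49 members above 0 throughout, Zfp956 and Zfp961, against 54.4% of all genes above 0 throughout (tolerance 1e-09). The spans of 5 members, Zfp950, Zfp953, Zfp965, Zfp981 and Zfp993, also overlap another measured gene, and their values are uncertain for that reason as well. Values with decimals are estimates, and how reads shared by several genes were assigned is not given in the sources used here.

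**Figure D5:**
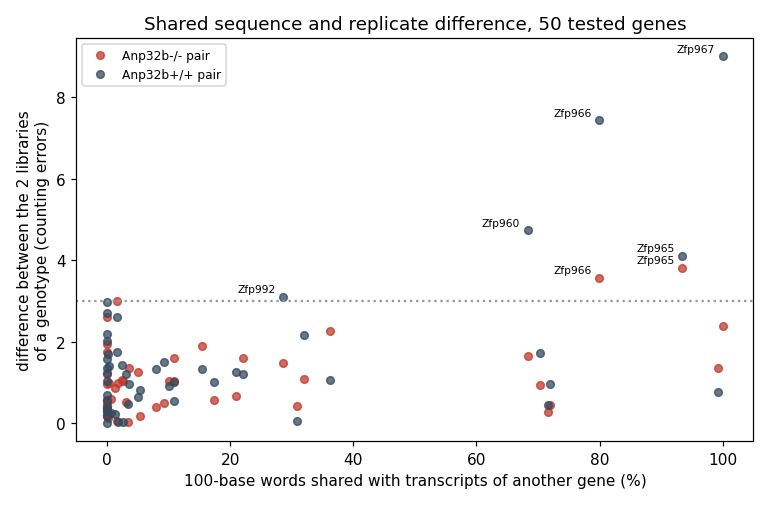
Difference between the 2 libraries of a genotype, in units of the counting error, against the share of a member's 100-base words found in another gene, for 50 tested members. The points above 3 are labelled: Zfp960, Zfp965, Zfp966 and Zfp967 share over 50% of their words, Zfp992 does not.

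Genes of the KRAB repressor pathway showed small fold changes. Of 25 listed genes measured, all tested, 3 rose and 1 fell, or 16% against 23.6% of all genes, and the median log2 fold change was 0.00. Trim28, the corepressor bound by KRAB domains, had 16244 and 15590.89 reads in Anp32b-/-, against 15218 and 15035.83 in Anp32b+/+ (0.11, SE 0.05, edgeR adjusted p = 0.148). Setdb1 was at 0.05 (SE 0.06, adjusted p = 0.603). Ehmt2, an H3K9 methyltransferase gene, rose by 0.21 (SE 0.05), Chd3, a chromatin remodeller gene, by 0.20 (SE 0.07), and Cbx5, the HP1alpha gene, by 0.15 (SE 0.05). Cbx1, the HP1beta gene, fell by 0.19 (SE 0.05). None of the 4 was called without Anp32b-/- replicate 1, without Anp32b-/- replicate 2 or with no filter.

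Zinc finger genes with other Zfp numbers were set beside the members. Of 290 tested, 25 rose and 13 fell, or 13.1%, against 24% of the Zfp9xx members and 23.6% of all genes. Their median log2 fold change was 0.01. The difference in share between the Zfp9xx genes and the other numbers was not tested.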

How the data were processed

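The authors deposited 1 file per library holding expected counts, that is estimated counts of reads for each gene symbol, per the file headers and the decimals in the values. Per the submitters' processing notes the build was GRCm38, and the tools listed, with no roles, were HISAT2 2.0.4 and DESeq2 1.4.5. Counting tool, annotation, strand setting and filters: not given in the sources used here. Hence reads of overlapping or antisense genes cannot be told apart.

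The counts were rounded and tested with edgeR 4.0.16 (R 4.3.3): quasi-likelihood test, TMM, filterByExpr with a minimum count of 10, no covariate, Benjamini-Hochberg adjustment over all 12123 tested genes, called under 0.05. SE is the log2 fold change divided by the square root of F. Libraries were grouped by genotype, and totals ran from 19581575 to 19758671 reads. An adjusted p printed after a value comes from this fit unless another is named. limma 3.58.1 and DESeq2 1.42.0 were alternatives. The procedure was tested on simulated counts. Cluster sums replaced the rows of their members in the whole table. Coordinates and promoters are from RefSeq (GRCm38.p6), in which all 58 members matched, transcripts from GENCODE M21 (GRCm38). Sequence words were compared on both strands.

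The members and lists were chosen with earlier results of these data known. Named were the called members, the 5 most abundant per length, the largest uncalled changes, members of clusters with a call, Trim28, Setdb1 and called genes of the repressor list. Chosen after values were seen were Zfp960, Zfp941, Zfp949 and the named rows in cluster intervals, the longest coding transcript as length, the limits of 50% shared words and 3 counting errors, the sums of copies, the motifs and promoters shown, and running DESeq2 on the filtered genes.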

Additional observations from a re-analysis of the deposited data

How the results depend on the processing

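In brackets beside each count of called members stands the share of all tested genes called in the same direction in the same fit. Of members, 5 rose (10.9% of all tested genes did) and 7 fell (12.6%). With DESeq2, 2 rose (6.01%) and 3 fell (6.99%). With no filter on low counts, 2 of 58 rose (3.30%) and 3 fell (4.49%). With a filter of 10 CPM in 2 libraries, 1 of 18 rose (11.3%) and 4 fell (12.5%). Over the leave-outs, from 1 to 5 rose and from 2 to 7 fell. Without Anp32b-/- replicate 1, 1 rose (4.71%) and 6 fell (6.94%), and without Anp32b-/- replicate 2, 2 rose (2.97%) and 2 fell (4.63%). In these fits the spread comes from the Anp32b+/+ pair, whose libraries lay further apart (chi-square over genes per df 2.11 for Anp32b-/- and 5.51 for Anp32b+/+). At a fold change of at least 2, 2 rose (1.30%) and 1 fell (3.90%). With cluster members summed, 0 of 24 rose (10.9%) and 3 fell (12.7%). The repressor genes called, 4, were 2 with upper-quartile normalization, 1 with DESeq2, 0 with no filter (edgeR with the filter gave 7 of 25 an unadjusted p under 0.05) and 2 with the filter of 10 CPM, and ran from 0 to 8 over the leave-outs. Other Zfp genes called, 38, were 12 with DESeq2 and 12 with no filter, and ran from 9 to 48 over the leave-outs. The cause was not tested. With RLE normalization and limma-voom these counts stayed within 1.5 times. Under the alternatives, the 12 called members lost their call 32 times. Only Zfp976, Zfp987 and Zfp991 kept theirs in all that gave them a value. Of all 518 values of tested members, most of them from members not called, 6 gained a call and no call changed direction. The deviations of libraries with the same replicate number had a correlation of 0.0476. From 2 libraries per genotype, this value cannot show whether such libraries share more than a number. With the replicate number as a block, 6 members rose (13.6%) and 8 fell (14.7%), with 4 repressor genes and 49 other Zfp genes called. Depth limits the low members: Zfp985 had 14.02 to 42.4 reads a library, and 8 members had too few to test.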
